A study of Mus musculus with 14 samples.

Results

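SINE B1 copies are the short interspersed elements of the mouse that belong to the Alu family in the repeat annotation. The members were all rows of that family, 16 subfamily rows among 1095 rows of transposable elements (TE) in the spermatogonia count table and 1098 in the spermatocyte table, and 574557 single copies among 3725827 TE copies (15.4%). The libraries hold polyadenylated RNA of germ cells sorted from mouse testes, from animals labelled Dnmt3CKO/KO (KO), which lack the DNA methyltransferase DNMT3C, and from wild type (WT) littermates on a C57BL/6 background. Spermatogonia (Spg), the germ cells before meiosis, came from animals at postnatal day 14 and were sorted as live cells with surface Ep-CAM but without beta-2-microglobulin, with 3 KO and 3 WT libraries. Spermatocytes (Spc), the germ cells in meiosis, came from animals older than 20 days and were sorted by Hoechst DNA content with propidium iodide exclusion, with 4 KO and 4 WT libraries. The deletion is present in the whole animal, and KO germ cells stop in the pachytene stage of meiosis. Spermatocyte differences of genotype and of meiotic stage therefore cannot be told apart.

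B1 elements descend from the RNA of the signal recognition particle (7SL), do not code for protein, and depend on the enzymes of L1 elements to be copied. A B1 element carries an internal promoter of RNA polymerase III with an A box and a B box, while a copy inside a gene is also read through by RNA polymerase II as part of the host transcript. The copies are rich in CpG sites when young, and these sites are methylated in most cells. PB1 and PB1D subfamilies are the oldest, the B1F and B1_Mur subfamilies are of middle age, and B1_Mus1, B1_Mus2 and B1_Mm are the youngest.

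Sequences of B1 copies were read where a copy lay whole within an exon of an annotated transcript that codes for no protein, such as a lincRNA or retained intron. This held for 11837 copies. A sequence was taken for the copy of each subfamily with the smallest adjusted p in spermatocytes among called copies with a sequence from a transcript that codes for no protein, which gave 10, and the 6 shown are examples of young and old subfamilies and no sample of their CpG content. They are printed on the strand of the element (GENCODE transcripts, GRCm38), with every CG in capitals.
B1_Mm_dup14582: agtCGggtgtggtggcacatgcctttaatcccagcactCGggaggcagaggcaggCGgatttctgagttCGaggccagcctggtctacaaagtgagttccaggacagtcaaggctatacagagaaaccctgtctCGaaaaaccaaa
B1_Mus1_dup81445: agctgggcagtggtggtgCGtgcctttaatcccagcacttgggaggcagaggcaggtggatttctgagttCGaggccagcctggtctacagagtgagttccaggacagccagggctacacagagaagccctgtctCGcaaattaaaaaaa
B1_Mur4_dup62: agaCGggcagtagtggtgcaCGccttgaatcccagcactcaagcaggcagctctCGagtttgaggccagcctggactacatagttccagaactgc
B1_Mur2_dup27656: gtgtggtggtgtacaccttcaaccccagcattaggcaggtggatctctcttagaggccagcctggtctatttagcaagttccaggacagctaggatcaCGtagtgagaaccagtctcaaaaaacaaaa
B1F_dup41312: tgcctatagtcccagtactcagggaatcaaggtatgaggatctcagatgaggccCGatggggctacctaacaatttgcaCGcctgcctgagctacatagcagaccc
PB1_dup10710: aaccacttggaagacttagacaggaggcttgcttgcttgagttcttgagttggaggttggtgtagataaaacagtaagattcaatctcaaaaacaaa
The B1_Mm copy lay at chr6:112703070-112703215 (+ strand) in an exon of the lincRNA gene Gm26799 and held 5 CG. The B1_Mus1 copy lay at chr15:79692162-79692311 (+ strand), in an intron of Gtpbp1 and opposite an exon of the lincRNA gene Gm26884, with 3 CG. Both of these young copies held the letters GTTCGA, the core of the B box, and the other 4 shown did not. The B1_Mur4 copy lay at chr1:10039050-10039144 (- strand) opposite an exon of a retained intron transcript of Cspp1, with 3 CG. The B1_Mur2 copy lay at chr15:102295795-102295922 (+ strand) opposite an exon of Gm49479, with 1 CG. The B1F copy at chr17:23751077-23751182 (- strand), opposite 9530082P21Rik, held 2 CG, and the PB1 copy at chr17:6799527-6799623 (- strand), in an exon of the lincRNA gene Gm2885, held 0.

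Libraries held between 40555726 and 53323651 counts, of which 1.77% to 8.67% belonged to TE. Dnmt3c does not serve to check the labels here, since its counts ran from 58 to 116 (KO) and from 53 to 89 (WT) in spermatogonia, and from 52 to 57 (KO) and from 11 to 28 (WT) in spermatocytes. In spermatocytes the summed level of 8 pachytene markers was 196 to 309 RPM (reads scaled to the total count of the library, without TMM) in KO and 4676 to 5771 in WT, and that of 8 spermatid markers 4.17 to 15.4 and 182 to 1432. All 8 pachytene and all 8 spermatid markers were called lower in KO. Markers of other testis cells went the other way there, with 5 of 5 Leydig, 4 of 4 macrophage, 3 of 4 peritubular and 1 of 6 Sertoli genes called higher in KO (28.0% of all genes tested were called higher and 30.7% lower), at summed levels of 65.4 to 333, 20.1 to 102, 19.8 to 206 and 80.7 to 309 RPM against 8.38 to 19.96, 1.30 to 3.57, 2.14 to 6.97 and 18.5 to 86.9 in WT. Of these calls, those of Gata4 (Sertoli), Hsd3b1 (Leydig) and Acta2 (peritubular) were each lost in 7 of 15 alternative fits, and that of Myh11 (peritubular) in 4, while with library totals 4 of 6 Sertoli and 4 of 4 peritubular genes were called. Replicates 1 and 4 of each spermatocyte genotype resembled each other more than any other pair (chi-square per degree of freedom 11.6 in KO and 14.9 in WT, against 129 to 286 for other pairs of spermatocyte libraries of a genotype), although their counts differed by more than sampling noise. None of these values was tested as a source of the B1 differences. In such bulk RNA, fewer cells of a type and less RNA per cell cannot be told apart.

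The first comparison asked what share of the RNA B1 elements took up in each library. In spermatogonia the B1 share did not separate the genotypes, and in spermatocytes it was 1.93-fold higher in KO. B1 made up 0.383%, 0.811% and 0.495% of all counts in the KO spermatogonia and 0.379%, 0.670% and 0.657% in the WT spermatogonia. The groups overlapped, and the means were 0.563% ± 0.222 and 0.569% ± 0.165 (SD, n = 3 each, two-sided exact permutation test, p = 1.0, where such groups cannot give less than 0.1). Spermatocyte shares were 0.551%, 0.636%, 0.711% and 0.534% in KO and 0.250%, 0.330%, 0.442% and 0.238% in WT. Every KO library lay above every WT library, with means of 0.608% ± 0.0820 and 0.315% ± 0.0940 (SD, n = 4 each) and a difference of 0.293 percentage points. The two-sided exact permutation test gave p = 0.0286, which groups of 4 cannot undercut, and an adjusted p of 0.0686 over 12 shares.

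The shares of other short repeats were also higher in the KO spermatocyte libraries. Without overlap between genotypes, the share of counts was 3.12-fold higher in KO for B2, 1.64-fold for B4, 1.73-fold for ID and 1.47-fold for MIR, each with the same exact p as B1, while for the LINE family L2 the groups overlapped (1.30-fold, exact permutation p = 0.0571). All TE counts together made up 5.74% to 8.67% of counts in KO spermatocytes against 1.77% to 2.93% in WT. As a percent of these TE counts B1 was 6.42% to 11.1% in KO spermatocytes against 13.4% to 15.6% in WT, and as a percent of SINE counts 31.1% to 36.0% against 37.5% to 37.9% (exact permutation p = 0.0286 for either). In spermatogonia B1 made up 10.1%, 14.9% and 13.7% of TE counts in KO and 16.6%, 19.1% and 20.04% in WT, which do not overlap (exact permutation p = 0.1, the smallest possible).

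**Figure D1:**
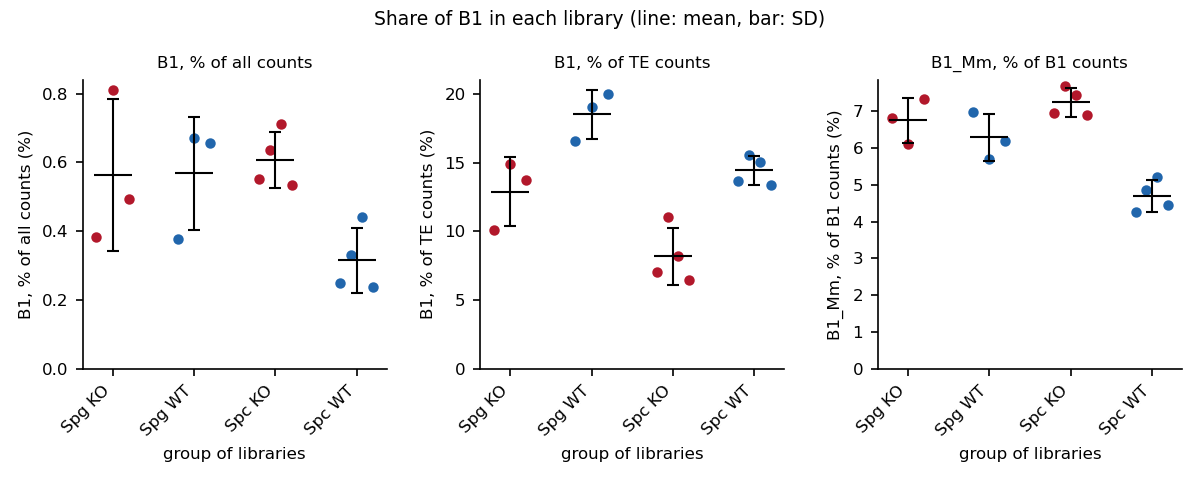
Points are libraries, lines the group means and bars the SD, with KO in red and WT in blue: B1 as a percent of all counts (left), of TE counts (middle), and B1_Mm as a percent of B1 counts (right). In spermatocytes the KO libraries lie above WT at left and right and below WT in the middle, while the spermatogonia groups overlap at left and right.

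The second comparison asked which of the 16 subfamilies differed between genotypes, with TMM-scaled counts, in which libraries are scaled so that most features stay level. In spermatogonia edgeR called 0 of 16 at an adjusted p under 0.01, as did DESeq2, and 0 of 16 had an unadjusted p under 0.05, where 0.76% of all TE subfamilies tested were called. Their log2 fold changes ran from -0.16 (FAM) to 0.07 (B1_Mm). In spermatocytes 1 of 16 was called, where 25.7% of all TE subfamilies tested were called and 11.7% called higher. It was B1_Mm, the youngest subfamily, with 317, 348, 400 and 312 CPM (counts scaled to the TMM-adjusted library size) in KO and 156, 198, 230 and 157 in WT. The genotypes did not overlap, and the log2 fold change was 0.89 ± 0.20 (SE, edgeR adjusted p = 0.0024). Without WT replicate 1 or WT replicate 4 that call was lost, at log2 fold changes of 0.78 and adjusted p of 0.0125 and 0.0119, and with replicates 1 and 4 of each genotype summed it was lost too (0.85, adjusted p = 0.0207).

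The other young subfamilies did not pass the threshold in spermatocytes. B1_Mus2 had 622, 687, 773 and 619 CPM in KO and 425, 522, 562 and 420 in WT (log2 fold change 0.49 ± 0.19 (SE), adjusted p = 0.0371). B1_Mus1 had 755, 794, 892 and 736 CPM in KO and 533, 677, 683 and 508 in WT (0.40 ± 0.19, adjusted p = 0.0737). For both the KO and WT libraries did not overlap, and neither did they for B1_Mur4, B1_Mur3 and B1_Mur2. The share of all TE subfamilies without overlap was not counted. Of the B1 copies tested in spermatocytes 44.4% had no overlap, so its absence sets none of these subfamilies apart. Among the subfamilies of middle age the log2 fold change was 0.38 for B1_Mur4, 0.30 for B1_Mur3, 0.37 for B1_Mur2, 0.25 for B1_Mur1, 0.00 for B1F, -0.21 for B1F1 and -0.18 for B1F2. Among the oldest it was 0.32 for PB1D9, 0.18 for PB1D7, 0.06 for PB1D11, 0.02 for PB1D10 and -0.09 for PB1, with adjusted p of 0.115 or more for each, and for FAM, the monomer with the fewest counts, it was 0.32. The median of the 16 was 0.27, that of all TE subfamilies tested 0.10 and that of all genes tested 0.11. The scaling decided the count. When libraries were scaled by their totals instead, the median gene moved to 0.79, the 16 ran from 0.47 to 1.55, and 11 of 16 were called, all higher. Of the 16, 10 lay above that median and 6 below it. Above it stood B1_Mm (1.55), B1_Mus2 (1.15), B1_Mus1 (1.07), B1_Mur4 (1.04), B1_Mur2 (1.04), PB1D9 (0.99), B1_Mur3 (0.98), FAM (0.97), B1_Mur1 (0.91) and PB1D7 (0.85), while B1F (0.67), B1F1 (0.47), B1F2 (0.52), PB1 (0.60), PB1D10 (0.70) and PB1D11 (0.75) stood below it.

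**Figure D2:**
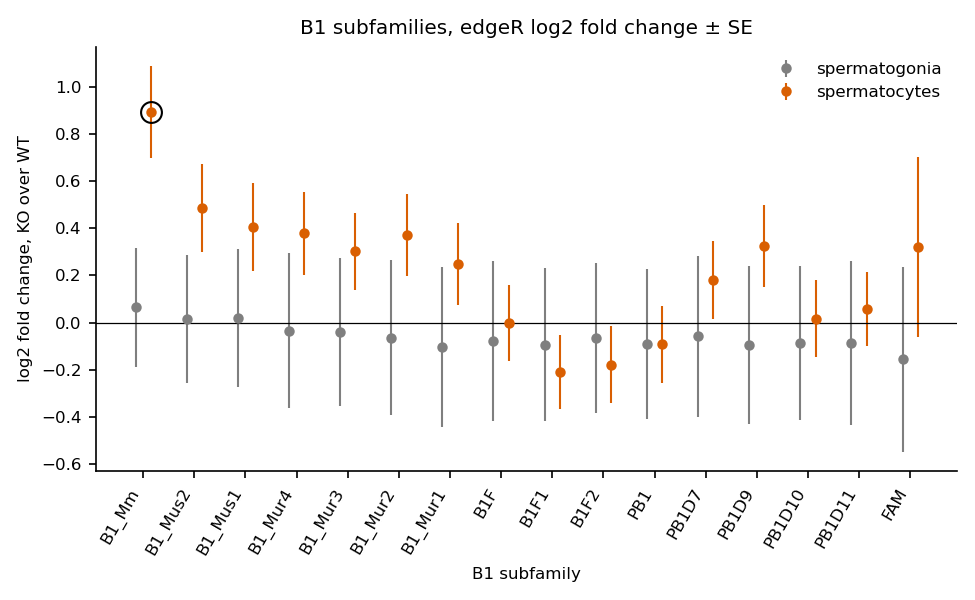
Log2 fold change of KO over WT for each B1 subfamily (points, edgeR on TMM-scaled counts, bars SE), in spermatogonia (grey) and spermatocytes (orange), ordered from the youngest (left) to the oldest. A black ring marks B1_Mm in spermatocytes, the member called at an adjusted p under 0.01. The spermatogonia points run from -0.16 to 0.07.

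The make-up of the B1 RNA does not depend on how libraries are scaled, and it is given as a description, since B1_Mm was chosen for its call on the same counts. In spermatocytes B1_Mm took 6.95%, 7.68%, 7.45% and 6.90% of B1 counts in KO and 4.26%, 4.87%, 5.22% and 4.46% in WT. The groups did not overlap, with a difference of 2.54 percentage points, and leaving out a library gave 2.40 to 2.72. In spermatogonia B1_Mm took 6.81%, 6.12% and 7.35% in KO and 6.97%, 5.70% and 6.19% in WT, which overlap. The WT spermatocytes were the low group. In spermatocytes B1_Mus2 and B1_Mur4 also took larger shares in KO without overlap (14.2% against 12.3%, and 7.08% against 6.58%), while PB1D10 (10.7% against 12.8%), B1F (6.44% against 7.82%), B1F1 (2.88% against 4.04%) and B1F2 (2.74% against 3.81%) took smaller shares.

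Per length of annotated copies, the youngest subfamily did not have the most recovered reads. Reads with more matches than the limit of the aligner were dropped, and the loss for young, nearly alike copies was not measured. In RPM per megabase of copies, the KO spermatocytes had between 75.8 (B1_Mm) and 131 (PB1D9) and WT between 25.6 (B1_Mm) and 71.9 (PB1), apart from FAM with its 117 short copies. B1_Mm was thus the lowest per length in WT spermatocytes at 25.6 ± 10.1 against 75.8 ± 13.7 in KO (SD, n = 4 each), and in spermatogonia it was 63.9 ± 20.2 in KO and 60.01 ± 12.8 in WT (SD, n = 3 each).

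Across stages the genotype effect on subfamilies was not shown to differ. In the fit of all 14 libraries edgeR and DESeq2 both called 0 of 16 for a genotype effect that differs with the stage, where 6.44% of TE subfamilies were called, and 1 of 16 had an unadjusted p under 0.05. That was B1_Mm, whose log2 effect was larger in spermatocytes by 0.77 ± 0.34 (SE), at an edgeR adjusted p of 0.0793. Between WT spermatocytes and WT spermatogonia 0 of 16 were called by either tool (25.5% of TE subfamilies called, 0 with an unadjusted p under 0.05), with B1_Mm at a log2 fold change of -0.44 and B1F1 at 0.42. These values rest on TMM factors of 0.61 to 0.85 in WT spermatocytes and 1.16 to 1.24 in WT spermatogonia. With library totals some B1 subfamilies were called between these stages. Between KO spermatocytes and KO spermatogonia 0 of 16 were called by either tool (1.43% of TE subfamilies called, 0 with an unadjusted p under 0.05), with values from -0.09 to 0.33.

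The single copies were followed through the reads recovered from the deposited TPM values. A B1 read was found on 117041 copies in spermatogonia (20.4%) and on 127261 in spermatocytes (22.1%), on 81413 in both and on neither for 411668 (71.6%). The RNA was spread widely. The 10 copies with most reads held 2.69% of B1 reads in spermatogonia and 2.54% in spermatocytes, and 50% of the reads lay on 7416 and 6139 copies. In spermatogonia edgeR on these reads called 21 of 11689 B1 copies with a mean of at least 5 reads, 9 higher and 12 lower in KO, where 8.27% of all TE copies tested were called. Paired by replicate block it called 33, and without KO replicates 1, 2 and 3 or WT replicate 2 it called 10, 5, 4 and 6. The split into higher and lower rests on single libraries, with 4 higher and 2 lower without WT replicate 2 and 5 higher and 24 lower without WT replicate 1. In spermatocytes it called 2015 of 8178, 1023 higher and 992 lower, where 51.4% of all TE copies tested were called and 39.8% called higher. The split rests on the scaling, since with library totals 2421 were called, 1674 higher and 747 lower. Reads that match several copies were shared between them, and the aligner dropped reads with more matches than a set limit. Young copies that are nearly alike are therefore uncertain.

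The test of log2 TPM gave another picture, and its directions are not read here. It called 1 of 67928 B1 copies in spermatogonia, where 0.00317% of all TE copies were called, and 4970 of 60482 in spermatocytes, 44 higher and 4926 lower, where 11% were called. Each library was centred on its median TE copy, and that copy was at 0 TPM in WT spermatogonia replicate 1 and in WT spermatocyte replicates 1, 2 and 4, so that centring raised those libraries. Without centring the spermatocyte calls were 3719, 2150 of them higher.

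Introns, on the strand of the host gene, held the largest share of B1 reads in every library. In spermatocytes it was 60.9% to 62.6% in the KO libraries and 45.9%, 55.04%, 60.4% and 44.8% in the WT libraries. The means were 62.0% in KO and 51.5% in WT, followed by copies outside genes (25.8% and 35.5%), introns against the gene (10.4% and 10.8%), exons against the gene (1.68% and 1.62%) and exons along the gene (0.212% and 0.535%). Exon copies along the gene had 0.529 reads each over all libraries against 6.82 for intron copies along the gene. Reads were counted for genes as well as TE copies, and how reads over both were divided was not tested. The low exon values are therefore not read as little B1 RNA in exons. In RPM, intron copies along the gene had 3339, 3894, 4289 and 3162 in KO and 1117, 1769, 2591 and 1035 in WT spermatocytes, a 2.25-fold difference of means without overlap. Copies outside genes had 1373, 1569, 1781 and 1376 in KO and 965, 1081, 1225 and 932 in WT, 1.45-fold and again without overlap. Introns against the gene were 1.92-fold and exons against the gene 2.05-fold higher in KO, and exons along the gene 0.823-fold. In spermatogonia the 5 places lay between 0.931-fold and 1.05-fold, and their groups overlapped.

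B1_Mm was higher in KO spermatocytes in each of the 3 main places. It was 2.74-fold higher in introns along the gene, 3.93-fold in introns against the gene and 3.10-fold outside genes, without overlap in any. Of the older subfamilies, B1F1 was 2.35-fold higher in introns along the gene without overlap, but 0.581-fold in introns against the gene and 0.816-fold outside genes, where its groups overlapped. Outside genes B1F2 was 0.679-fold and PB1D10 0.803-fold in KO, while along introns they were 1.98-fold and 2.10-fold.

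**Figure D3:**
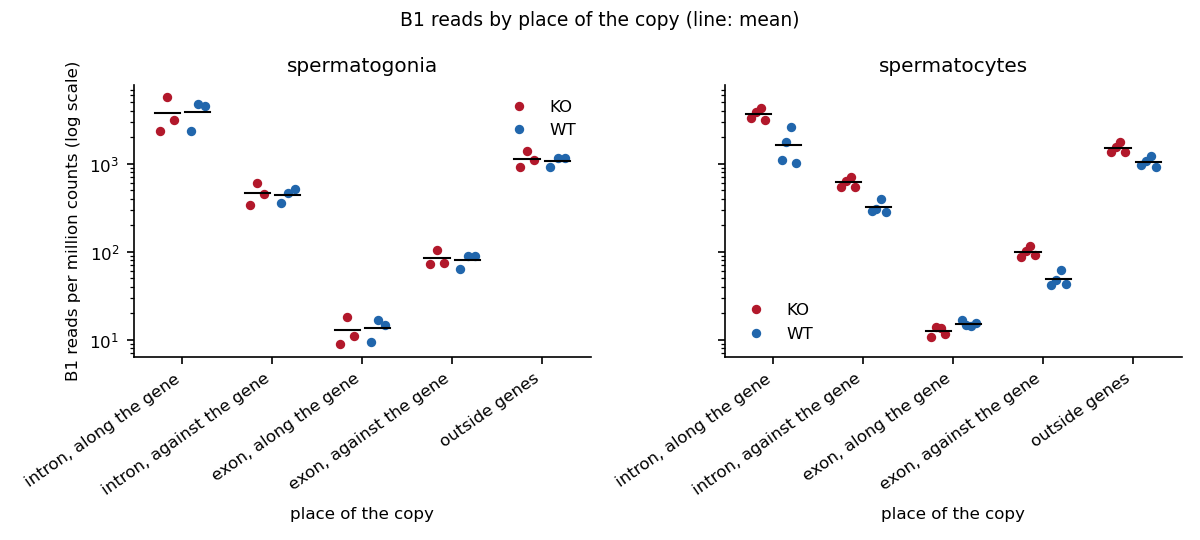
B1 reads in RPM (log axis) by place of the copy, in spermatogonia (left) and spermatocytes (right), with 1 point per library (KO red, WT blue) and a line at the mean. In spermatocytes KO lies above WT in 4 of the 5 places, most for introns along the gene in absolute reads, and below WT for exons along the gene, while the spermatogonia groups overlap.

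Intron copies in spermatocytes were split by the call of their host gene (folds in RPM, where all B1 reads were 1.93-fold higher). The counts of calls stand beside 39.8% of all TE copies tested called higher and 11.6% called lower. Where the host gene was itself called higher in KO, 234 of 904 B1 copies tested along it were called higher and 8 lower, and their summed reads were 6.10-fold higher (10.01-fold without WT replicate 3). Where the host gene was called lower, 369 of 2301 copies were called lower and 47 higher, at 1.18-fold. Where it was not called, 178 of 2265 were higher and 25 lower, at 3.205-fold. Over 5470 copies with a tested host gene, the log2 fold changes of copy and gene had a Pearson r of 0.72 and a Spearman rho of 0.62, given as a description, since copies of a gene share its transcript and all points share the libraries. Of 658 called copies in called host genes, 603 (91.6%) had the direction of the gene.

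Among the ranges of distance from young retrotransposons, the fold in summed B1 reads in spermatocytes was highest within 500 bases after them on the same strand. A young copy here is an L1Md_A, L1Md_T, L1Md_Gf, L1Md_F, IAPEz-int or MMERVK10C-int copy of at least 1000 bases, subfamilies that DNMT3C is known to methylate in male germ cells, and there were 21936. In spermatocytes the 443 B1 copies within 500 bases after a young copy, on the same strand, had 493, 238, 463 and 604 reads in KO and 3, 6, 18 and 3 in WT. In RPM that was 9.73 against 0.152, 64.2-fold (121-fold without WT replicate 3, which held 18 of the 30 WT reads). The fold was 10.4 from 500 to 2000 bases, 11.6 from 2000 to 5000 bases, 4.04 from 5000 to 20000 bases and 1.90 for all others. Of the 443 copies 10 reached the mean of 5 reads needed for a test, through their reads in KO, so the number called says nothing about the range. The groups of libraries did not overlap in any of these ranges. Before a young copy on the same strand the folds were 3.12, 0.571, 0.662, 1.38 and 1.94 in the same order, and on the other strand 14.3 (28.4 without WT replicate 3), 2.73, 1.76, 1.98 and 1.92.

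In spermatogonia the folds after a young copy were smaller. Within 500 bases after a young copy B1 had 119, 179 and 115 reads in KO and 22, 47 and 34 in WT spermatogonia, 3.69-fold in RPM, then 3.37-fold, 2.13-fold and 1.24-fold in the next ranges and 0.984-fold for all others. The groups did not overlap in the first 3 ranges. Within 500 bases the reads were also higher in KO spermatogonia, without overlap, before a young copy on the same strand (2.22-fold, and 3.73-fold without WT replicate 2) and on the other strand (2.03-fold). The old L1 subfamily Lx served as a comparison with few reads. After Lx copies the range of 0 to 500 bases gave 0.847-fold in spermatocytes, from 39 and 50 reads with overlap, and the next ranges 4.18-fold, 4.42-fold and 2.33-fold. In spermatogonia that range gave 4.28-fold (7.30-fold without WT replicate 2), from 33 and 7 reads without overlap, so a rise after an L1 copy was not shown to be particular to the young subfamilies. Copies farther than 20000 bases after a young copy, or with none before them, held 97.3% of B1 reads in KO and 99.2% in WT spermatocytes. B1_Mm copies were 7.92-fold higher within 20000 bases after a young copy and 2.88-fold higher beyond. This was not particular to B1_Mm. Without a library in turn, the fold within 20000 bases ran from 7.30 to 10.02 for B1_Mm. It ran from 9.28 to 17.4 for B1_Mur1 (1.70 to 2.17 beyond) and from 7.44 to 10.6 for B1_Mus1 (1.88 to 2.39 beyond). For PB1 the 2 ranges were alike, at 1.33 to 1.68 within and 1.42 to 1.68 beyond.

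**Figure D4:**
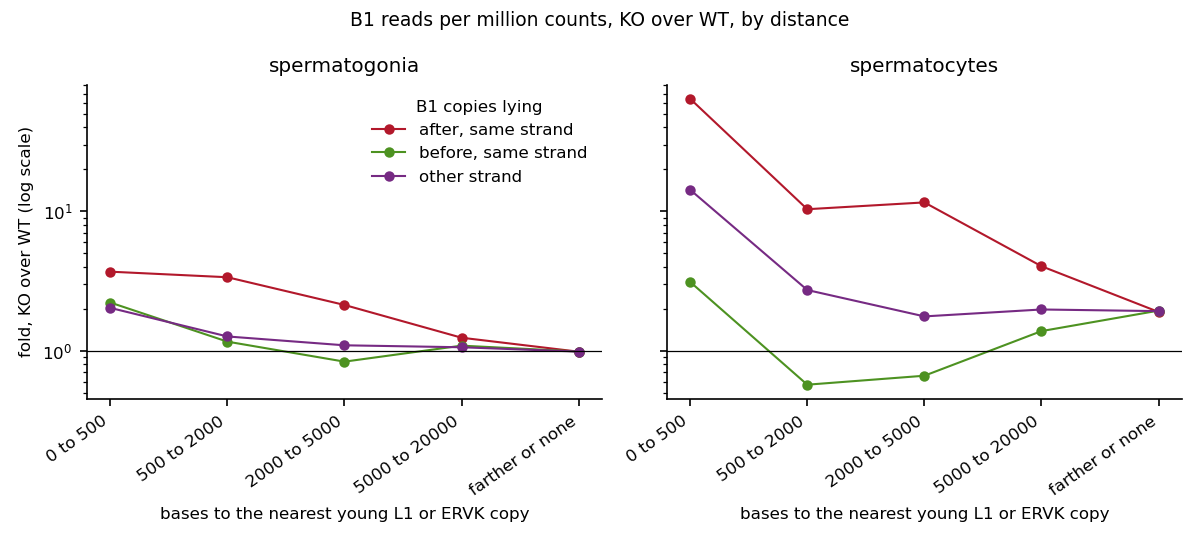
Fold of KO over WT in B1 RPM (log axis, ratio of group means) by distance in bases from the nearest young L1 or ERVK copy, for copies after it on the same strand (red), before it on the same strand (green) and on the other strand (purple). In spermatocytes (right) copies after a young copy start at 64.2-fold and end at 1.90-fold, and in spermatogonia (left) they run from 3.69-fold to 0.984-fold.

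Several of the copies with the largest rise in spermatocytes lay in a row. B1F2_dup10185 (chr10:63389325-63389459), B1_Mur1_dup23846 (chr10:63387713-63387851) and B1_Mm_dup26147 (chr10:63387415-63387559), all on the - strand, lie 2144 to 4044 bases after MMERVK10C-int_dup2157 (chr10:63391604-63394292) and run against Dnajc12, a gene of the DnaJ co-chaperone family, in an intron. B1F2_dup10185 had 149, 49, 112 and 172 reads in KO, B1_Mur1_dup23846 had 129, 33, 104 and 147, and B1_Mm_dup26147 had 100, 57, 80 and 142, and all 3 had 0 reads in the 4 WT libraries (edgeR adjusted p = 1.5e-07, 2.6e-07 and 2.0e-07). The MMERVK10C-int copy itself had 3959, 1829, 4058 and 4545 reads in KO and 8, 5, 169 and 2 in WT, so KO replicate 2 was the lowest KO library for all 4 elements. These elements lie in a row on the same strand, so their reads are not independent.

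Copies within 500 bases after a young copy were named for having most reads. Those with 0 reads in WT reached the mean needed for a test through KO alone. Their adjusted p therefore describe chosen copies and say nothing about the range. PB1D10_dup9357 (chr3:32623006-32623076, - strand), 77 bases after L1Md_A_dup2452, had 73, 51, 84 and 137 reads in KO and 0 in each WT spermatocyte library (adjusted p = 2.6e-07). In spermatogonia it had 14, 13 and 10 reads in KO and 0 in each WT library, which did not pass the threshold (adjusted p = 0.0177). PB1_dup2299, in an intron of Ripk2 and 449 bases after L1Md_A_dup3444, had 6, 16 and 12 reads in KO and 4, 4 and 22 in WT spermatogonia, which overlap (log2 fold change 0.11, edgeR adjusted p = 0.9999). B1_Mm_dup14535 (chr6:107944906-107945042, - strand), 34 bases after L1Md_T_dup8560, had 49, 31, 36 and 36 reads in KO and 0 in each WT spermatocyte library (adjusted p = 3.1e-06), where the L1 copy had 1865, 797, 1831 and 2257 reads in KO and 0, 0, 4 and 0 in WT. Some rising copies had no young copy so near. B1_Mus2_dup42461 (chr10:57392275-57392419, + strand), outside genes and 147802 bases from the next such copy upstream, had 122, 41, 195 and 158 reads in KO and 0 in WT (adjusted p = 1.7e-07). B1_Mur4_dup40978, on an unplaced scaffold, had 137, 112, 103 and 78 reads in KO and 0 in WT (adjusted p = 1.1e-07).

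The copies that fell most in KO spermatocytes were read in WT alone or nearly so, and all of the 5 lay outside genes. B1_Mus1_dup93034 (chr19:7640817-7640953, + strand) had 0 reads in each KO library and 435, 643, 379 and 356 in WT (adjusted p = 3.9e-08). Its neighbour B1_Mus1_dup93033 (chr19:7639839-7639982, + strand), among the 5 copies of highest mean TPM, had 1, 0, 2 and 6 reads in KO and 1256, 1836, 977 and 1116 in WT. PB1D10_dup55992 (chr15:59249884-59249975, - strand) had 0 reads in each KO library and 352, 650, 374 and 411 in WT. The other 3, B1F_dup28515 (chr10), B1_Mus1_dup26392 (chr5) and B1_Mur4_dup40518 (chr19), had 0 reads in KO and between 92 and 362 in each WT library. These counts stand beside the pachytene and spermatid markers, which were lower in the same KO libraries, and their part in the result was not tested.

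Of the 5 copies with the highest mean TPM in spermatocytes, 4 were such copies of WT. Besides B1_Mus1_dup93033 they were PB1D11_dup17434 in an intron of Prkce on the other strand (2, 0, 0 and 7 reads in KO, 1226, 692, 407 and 1070 in WT), PB1D10_dup44443 on chr11 (5, 0, 3 and 3, against 942, 849, 879 and 859) and B1F2_dup16313 on chr19 (22, 16, 27 and 17, against 1635, 574, 697 and 1348). All 4 were called lower in KO. The highest of all, PB1_dup6046 (chr9:90120153-90120202, + strand, 50 bases, outside genes), had 742, 571, 735 and 789 reads in KO and 719, 359, 495 and 561 in WT and was not called (adjusted p = 0.778). It was among the 5 highest in spermatogonia too, with 440, 453 and 333 reads in KO and 438, 330 and 433 in WT.

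The other 4 of highest mean TPM in spermatogonia were not called either. B1_Mus1_dup78164 (chr14:73954259-73954355, - strand, against Gm49164 in an intron) had 1397, 1227 and 1253 reads in KO and 1385, 755 and 1245 in WT. PB1D10_dup24609 (chr7:19098436-19098552, - strand) lies against an exon of Six5, a homeobox gene, and had 1307, 1733 and 1157 reads in KO and 917, 970 and 1073 in WT, without overlap (adjusted p = 0.984). The remaining 2 were B1_Mus2_dup64515, against Pacsin1 in an intron, and PB1D11_dup18033, in an intron of Tcirg1, a stretch of 11 bases whose TPM rests on 55 to 167 reads.

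The 9 copies called higher in KO spermatogonia included PB1D10_dup34894 (chr9:98259854-98259940, + strand), 3096 bases after L1Md_T_dup11896, with 19, 19 and 15 reads in KO and 0 in each WT library (adjusted p = 0.00542). The L1 copy had 56, 63 and 16 reads in KO and 0 in WT. B1_Mus1_dup74165 (chr13:66634959-66635069, + strand), outside genes, had 30, 26 and 43 reads in KO and 0 in WT (adjusted p = 8.9e-04). B1_Mus1_dup94892, B1_Mur1_dup37964 and B1_Mur2_dup31834 share an unplaced scaffold and had 27, 69 and 58, 41, 194 and 58, and 8, 34 and 19 reads in KO, and at most 1, 5 and 1 in a WT library. The 5 largest falls in KO spermatogonia were B1F_dup14887, PB1D10_dup44443, PB1D10_dup55992, B1F1_dup7964 and PB1D10_dup34194, with 0 reads in each KO library. PB1D10_dup44443 had 38, 139 and 10 reads in WT, and WT replicate 2 was the highest library for each of the 5. The summed level of the pachytene markers was 134 to 171 in the KO libraries of this stage and 263 to 1457 in WT (RPM), and its part in these falls was not tested.

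The printed copies, chosen for their adjusted p in spermatocytes, moved both ways. B1F_dup41312 had 13, 21, 25 and 13 reads in KO and 2, 0, 1 and 0 in WT, and B1_Mur2_dup27656 had 7, 46, 29 and 10 in KO and 0, 1, 4 and 0 in WT. B1_Mur4_dup62 had 2, 1, 8 and 4 in KO and 164, 86, 96 and 132 in WT, and PB1_dup10710 had 38, 24, 41 and 20 in KO and 128, 61, 53 and 76 in WT. B1_Mm_dup14582, the copy with 5 CG, fell in KO, with 11, 0, 0 and 7 reads in KO and 0, 49, 56 and 66 in WT, and its groups overlapped. B1_Mus1_dup81445 had 0, 2, 0 and 2 in KO and 14, 35, 20 and 16 in WT.

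CpG content set the 3 young subfamilies apart. Over the 11837 sequences, B1_Mm held 2.195 CG per 100 bases, B1_Mus2 1.99 and B1_Mus1 1.47, while the other subfamilies of at least 100 sequences held 0.673 to 0.900. The letters GTTCGA of the B box core, searched on both strands, were in 37.4% of B1_Mm, 31.0% of B1_Mus2, 25.9% of B1_Mus1 and 0.990% to 9.05% of the other subfamilies, against 1.52% of B2 and 2.28% of B4 sequences. The letters GCGCANGC, part of the motif that the factor NRF1 prefers, were in 18.9%, 16.8% and 13.3% of the 3 young subfamilies and in 0% to 2.76% of the others, against 0.264% of B2 and 0.990% of B4. Each of these strings holds a CG, so they are not separate from the CpG count.

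Across 15 subfamilies, CG per 100 bases and the log2 fold change in spermatocytes had a Pearson r of 0.74 and a Spearman rho of 0.57, and in spermatogonia 0.91 and 0.64. These are descriptions, since the subfamilies share reads and libraries and the 3 young subfamilies lie apart from the other 12. Among the tested copies with a sequence, those with 3 or more CG had 1 called higher and 3 lower of 18 in spermatocytes (median log2 fold change 0.08), those with 1 or 2 CG had 6 and 5 of 27 (1.03), and those with no CG had 0 and 3 of 27 (0.86). Over all B1 copies tested in spermatocytes 2015 of 8178 were called, and over all TE copies 51.4%, so these small counts set no class apart. In spermatogonia 0 of the copies with a sequence were called.

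**Figure D5:**
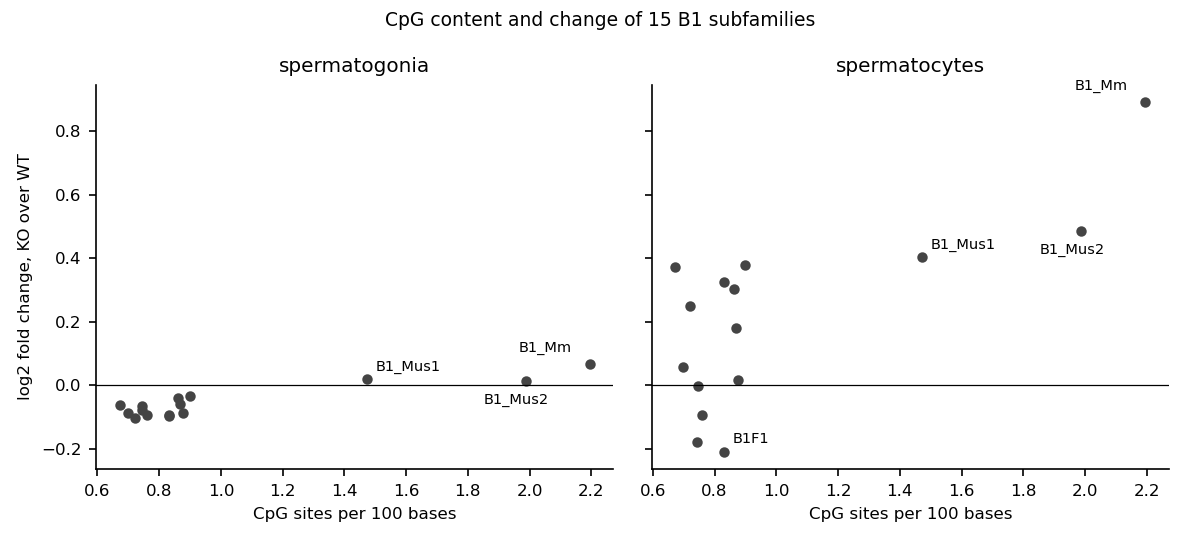
CpG sites per 100 bases of 15 B1 subfamilies against their log2 fold change of KO over WT, in spermatogonia (left) and spermatocytes (right), 1 point per subfamily. The sequences are those of copies in exons of transcripts that code for no protein. B1_Mm, B1_Mus2 and B1_Mus1 lie to the right, at 2.195, 1.99 and 1.47, and the other 12 lie at or below 0.900.

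The genes that make, bind or silence B1 RNA were taken from lists of 41 genes. In spermatogonia 0 of 41 were called by edgeR, where 0.0436% of all genes tested were called, while 1 had an unadjusted p under 0.05 and DESeq2 called 0. In spermatocytes 25 of 41 were called, where 58.8% of all genes tested were called. Of 13 subunits of RNA polymerase III, which transcribes B1 from its internal promoter, 2 were higher and 5 lower in KO. The most lowered was Polr1d (log2 fold change -2.20, adjusted p = 2.7e-05), a subunit shared with RNA polymerase I, and the highest Polr3g (2.23, adjusted p = 0.00319), which takes the place of Polr3gl (-1.57, adjusted p = 1.8e-04) in a form of the enzyme found in stem cells. Polr3f also rose (2.14), and Crcp (-1.95), Polr3c (-1.34) and Polr1c (-1.27) also fell, the calls of Polr3c and Polr1c being lost with library totals. Under that scaling Polr3a (1.48, adjusted p = 0.00266) and Polr3d (1.71, adjusted p = 0.00543) were called higher as well, so 4 were higher and 3 lower and the majority turned.

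Of 10 initiation factors of that polymerase, Bdp1 (1.56), Gtf3c2 (1.07) and Gtf3c6 (0.88) were called higher and Tbp (-2.05), Gtf3c1 (-1.65) and Gtf3c4 (-1.44) lower, in log2 fold change, and with library totals 5 were higher and 3 lower. Maf1, the repressor of RNA polymerase III, was called lower (-0.91, adjusted p = 0.0019), a call lost with library totals (-0.18). Of 8 proteins of the signal recognition particle, Srp54a (1.28) and Srp54b (1.39) were called higher and Srp9 (-1.75), Srp14 (-1.81), Srp68 (-1.35) and Srp19 (-0.98) lower, the calls of Srp68 and Srp19 being lost with library totals. Srp54c (1.36, adjusted p = 0.00291) and Srp72 (0.73, adjusted p = 0.00326) were called higher under that scaling, which turned 2 higher and 4 lower into 4 higher and 2 lower. SRP9 and SRP14 bind the Alu fold that B1 RNA shares with 7SL RNA, and their genes had 67.0 ± 12.03 and 75.7 ± 17.2 CPM in KO against 226 ± 40.6 and 266 ± 69.2 in WT (SD, n = 4 each). Ssb, whose La protein binds the ends of RNA polymerase III transcripts, was called higher (1.21, adjusted p = 0.00457). Of 8 genes listed for silencing of SINEs, Suv39h1 (3.58) and Suv39h2 (2.11), which methylate histone H3 at lysine 9, the chromatin remodeller Hells (2.65) and Cbx3 (1.28) were called higher and none lower, and with library totals 5 were higher. Over 15 fits with other settings or without a library, the call was lost in 9 for Gtf3c6, in 8 for Srp54b, in 6 for Ssb and in 3 for Polr3g. The spermatogonia markers, 6 of 9 called higher and 1 lower in KO spermatocytes where 28.0% of all genes tested were called higher, stand beside these values, and their part was not tested. Those 6 calls were lost in 8 (Zbtb16), 6 (Kit), 6 (Dmrt1), 6 (Stra8), 4 (Uchl1) and 3 (Etv5) of the 15 fits.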

How the data were processed

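Polyadenylated RNA of 14 libraries was analysed. The authors trimmed reads with cutadapt 4.0 and aligned them with STAR 2.7.3a to GRCm38, keeping reads with many alignments up to a set limit. They deposited raw counts per gene and TE subfamily (TEtranscripts) and TPM per TE copy (TElocal). TPM sums to a fixed total over TE copies alone. A further spermatogonia replicate per genotype was not analysed here. Columns of the authors' own DESeq2 1.44.0 comparison (fold changes and p-values) were not used.

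Counts were fitted over all genes and TE subfamilies with the quasi-likelihood test of edgeR 4.0.16 in R 4.3.3 (TMM, Benjamini-Hochberg, called at an adjusted p under 0.01), with DESeq2 1.42.0 as an alternative. Copies were tested with limma 3.58.1 on log2(TPM + 0.1), for a mean TPM of at least 0.5. Because TPM times length came out as whole multiples of a step (100% within 0.01 reads), reads were recovered and tested with edgeR for a mean of at least 5 reads. This test was chosen after seeing the data, as was the share of B1_Mm in B1. On simulated spermatocyte copies the edgeR test recovered 79 of 93 copies changed 8-fold and 100 of 100 changed 32-fold, and limma 1 of 100 and 18 of 100. In spermatogonia edgeR recovered 82 of 100 and 100 of 100, and limma 0 of 100 and 0 of 100. The simulation gave all copies the same fixed spread, let libraries differ in depth alone, and changed copies with a mean of at least 5 reads. Recovery at the spread of the real libraries was not tested. Shares were compared with two-sided exact permutation tests.

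Named copies were, per stage, the 5 of highest mean TPM, the 5 called on recovered reads with the largest change in each direction and no overlap between groups, and those with most reads within 500 bases after a young copy. A copy without reads in a genotype passed the filter on mean reads through the other genotype alone. Its adjusted p describes a chosen copy. The members and lists were chosen with earlier results of these data known. Gene context came from GENCODE M21 (GRCm38). The sequence and values of 1 copy are not reported here. The study calls its RNA-seq replicates biological, but the labels do not tie them to separate animals, so p-values may measure a partly technical spread. In spermatogonia, libraries of the same number had correlations of deviations of 0.75, 0.19 and 0.29. The unlike pair of KO replicate 2 and WT replicate 3 reached 0.33, so only number 1 stood out as a pair. In spermatocytes the values were 0.055, 0.19, -0.035 and 0.11, and no pairing was read from them. Python 3.11.15 with NumPy 2.4.6, SciPy 1.17.1, pandas 2.3.3 and matplotlib 3.10.9 was used.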

Additional observations from a re-analysis of the deposited data

Results flagged for a closer look

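Of 76 groups of 4 spermatocyte libraries checked, 8 (10.5%) held a library far from the other 3, where chance gives about 1 in 20 groups. In KO it was replicate 3 that stood high. For B1_Mur3, at 217, 217, 258 and 223 CPM, the gap was 0.863 of the group's range. For B1 reads scaled to the total count (RPM) on the other strand of young copies it was 0.963 from 500 to 2000 bases (15.6, 15.4, 19.0 and 15.5) and 0.938 from 5000 to 20000 bases (142, 142, 181 and 140). In WT it was also replicate 3 that stood high, with a gap of 0.858 for introns against the gene (291, 303, 399 and 287 RPM). After young copies the gap was 0.858 from 500 to 2000 bases (1.54, 1.57, 3.06 and 1.32) and 0.858 from 2000 to 5000 bases (2.38, 1.84, 5.68 and 2.06). On their other strand it was 0.888 from 0 to 500 bases (0.263, 0.408, 1.56 and 0.273) and 0.924 from 2000 to 5000 bases (17.0, 16.4, 25.1 and 16.4).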

How the results depend on the processing

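Of 1033 alternatives, most of them folds without a library, 987 kept the direction and side of the threshold or stayed within the stated range. Another 36 moved beyond that range, 3 lost a call and 7, all of the B1 share, were counted as changing direction. Folds that crossed 1 without a library were not counted among these 7. In spermatogonia the fold for introns along the gene ran from 0.713 to 1.15 without a library. In spermatocytes the fold from 0 to 500 bases after Lx copies ran from 0.707 to 1.06. The number of B1 subfamilies called in spermatocytes, 1, became 2 at an adjusted p under 0.05, 11 with library totals and 0 with replicates 1 and 4 summed, and was 0 to 1 without each library in turn. Between WT stages 0 became 4 with library totals. The B1_Mm log2 fold change of 0.89 was 0.85 with replicates 1 and 4 summed and 0.78 to 1.02 without a library. The B1 share in spermatocytes differed by -6.28 points as a percent of TE counts and by -3.91 as a percent of SINE counts, and by 0.258 to 0.335 points of all counts without a library. In spermatogonia the share difference of -0.00565 was 0.0026 per 100 gene counts and ran from -0.130 to 0.0842 without a library. The cause of these shifts was not tested.

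On log2 TPM the 1 call in spermatogonia became 0 without centring, 0 centred on B1, 12 with a pseudocount of 1, 0 with 0.01, 0 at a mean TPM of 1, 4 without the filter, 6 at an adjusted p under 0.05, 21 on recovered reads and 0 to 0 without a library. The 4970 in spermatocytes became 2230 without the filter, 10322 at an adjusted p under 0.05, 2015 on recovered reads and 3239 to 7065 without a library. On recovered reads the 21 calls in spermatogonia became 71 at an adjusted p under 0.05 and 4 to 29 without a library (10, 5 and 4 without KO replicates 1, 2 and 3, and 6 without WT replicate 2), and the 2015 in spermatocytes became 1157 with at least 10 reads, 3278 at an adjusted p under 0.05 and 1518 to 2459 without a library.

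With the replicate number as a block, calls on log2 TPM were 5 in spermatogonia and 7920 in spermatocytes, and on recovered reads 33 and 1984. The block left 0 and 1 subfamilies called, and the B1 share in spermatocytes gave an exact permutation p of 0.125, the smallest that 4 pairs allow. Apart from number 1 in spermatogonia, libraries of the same number were not shown to be pairs.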
